A study of Mus musculus with 14 samples.

Results

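Deletion of Cfb was examined in the diabetic kidney, among the genes that the kidney transcribes at an appreciable level. The 4 Cfb-/- diabetic mice were compared with the 4 WT diabetic mice, and a gene entered when its level was at least 5 FPKM in all 8 mice or in all 4 mice of a group. FPKM divides the fragments of a gene by its transcript length and by the size of the library, so levels of different genes can be set side by side per length. By this rule 7005 of the 21878 genes in the files were abundant. Of these, 6607 reached the limit in all 8 mice, 258 only through the Cfb-/- mice, and 140 only through the WT mice.

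All mice were male C57BL/6J, and the time given for them was 34 weeks, without a starting point. Diabetes had been induced with a diet of 60% fat calories for 4 weeks, followed by STZ at 60 mg/kg on 5 days, and the groups compared here both carried this treatment. The 3 Cfb-/- control and 3 WT control mice received chow with 10% fat calories and citrate buffer in place of STZ. The control samples' treatment label names diabetes all the same, while their titles, diet and disease labels name controls, which were followed here. The knockout was global, so a difference in kidney RNA could arise from any tissue that lacks factor B. The labels of the Cfb-/- samples name a knockdown, while their titles name a knockout. Each sample was 1 mouse.

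Factor B is the serine protease of the alternative complement pathway. It binds C3b, is cleaved by factor D, and forms the convertase that deposits further C3b. In the kidney Cfb is transcribed mainly by tubular cells, and its level rises with inflammatory signals. Proximal tubule cells, which make up most of the cortex, take their energy largely from fatty acid oxidation, while sterol synthesis and uptake are set by SREBP-2 and its partners.

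The tissue fitted its label, since 59 of 61 listed proximal tubule genes, 24 of 27 thick limb and distal genes, 24 of 31 collecting duct genes and 13 of 20 podocyte genes were abundant. The abundant genes held 94.9% to 95.9% of the summed FPKM of a diabetic mouse. Correlations of log2(FPKM + 0.1) over these genes were 0.970 to 0.991 within the Cfb-/- diabetic group, 0.977 to 0.989 within the WT diabetic group, and 0.965 to 0.990 between them. The absolute sequencing depth is unknown. Cfb-/- diabetic mice 1 and 2 stood apart from the others of their group. On the first principal component, with 43.3% of the variance, they scored 15.5 and 16.9, against -9.96 and -9.49 for Cfb-/- mice 3 and 4 and -12.5 to 7.69 for WT mice. On the second, with 20.6%, the genotypes did not overlap, at -10.5 to -3.80 in Cfb-/- mice and -1.17 to 13.6 in WT mice. Values without Cfb-/- mice 1 and 2 are given below for some lists and genes, but not for all that changed. The log2 fold change also turned without them for Klk1 (0.31 to -0.14), Cd36 (-0.23 to 0.15) and Sord (-0.18 to 0.11). For Slc27a2 it went from -0.25 to -0.006, and the median of the interferon and MHC class I list turned from 0.10 to -0.18.

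Cfb itself (chr17:34856374-34862514, GRCm38.p6) was measured at 1.38, 1.43, 1.13 and 1.42 FPKM in Cfb-/- diabetic mice and at 78.8, 81.9, 72.7 and 56.7 FPKM in WT diabetic mice. Each Cfb-/- mouse was far below each WT mouse. The log2 fold change was -5.65 (SE 0.196), or 0.0199-fold with a 95% interval of 0.0149 to 0.0267, and the limma p after Benjamini-Hochberg adjustment was 6.24e-10. Cfb was a member through the WT mice alone. Which part of the gene was deleted is not given in the labels, and the fragments left in Cfb-/- mice could not be placed along it.

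Apart from Cfb, no abundant gene passed an adjusted p of 0.05, so that 1 gene was called, against a background of 0.00671% of the 14912 genes tested. The study had called genes that changed over 2-fold at an unadjusted p under 0.05. This called 4 abundant genes, 0 higher and 4 lower in Cfb-/- diabetic mice, against 0.476% of all tested genes (0.0738% higher and 0.402% lower). Among them were Cfb, Cfd and Car3. An unadjusted p under 0.05 was found for 170 abundant genes, or 2.43%, of which 53 were higher and 117 lower in Cfb-/- mice. The share over all tested genes was 3% (1.33% higher and 1.67% lower), so that abundant genes did not exceed the background. Diabetes, as measured in the same fit, gave an adjusted p under 0.05 for 3122 of the same abundant genes in WT mice and for 2128 in Cfb-/- mice.

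The values of the 4 mice of each genotype did not overlap for 177 abundant genes, 111 higher and 66 lower in Cfb-/- diabetic mice. This was 2.53% of abundant genes, against 2.75% of all tested genes (1.86% higher and 0.885% lower). Among the 6607 genes with at least 5 FPKM in all 8 mice, 91 were higher and 61 lower without overlap, while the 258 genes admitted through the Cfb-/- mice had 20 higher and 0 lower and the 140 admitted through the WT mice had 0 higher and 5 lower, a direction that their admission favours. For a single gene an exact two-sided permutation test of 4 mice against 4 cannot give a p below 0.0286, which each of these genes reached before any adjustment. The split by direction depended on the scaling. With median-ratio scaling 49 genes were higher and 146 lower, and with the dependence on transcript length removed 60 were higher and 105 lower. Of the 111 higher genes, 39 still did not overlap after median-ratio scaling and 32 after removal of the length dependence; of the 66 lower genes, 56 and 35 did.

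Differences among abundant genes were small, and most large ones could be excluded gene by gene. The median log2 fold change was 0.015, with quartiles of -0.064 and 0.092. Only 6 abundant genes differed by more than 2-fold and 35 by more than 1.5-fold in either direction. The 95% interval reached a median of 0.28 to either side on the log2 scale, or 1.21-fold. For 6141 genes (87.7%) the interval lay inside 1.5-fold either way, for 6881 (98.2%) inside 2-fold, and for 6997 (99.9%) inside 4-fold. When the intervals were widened by Bonferroni over all 14912 tested genes, so as to hold for all genes at once, 122 abundant genes lay inside 1.5-fold, 3253 (46.4%) inside 2-fold, 6128 (87.5%) inside 3-fold and 6672 (95.2%) inside 4-fold.

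**Figure D1:**
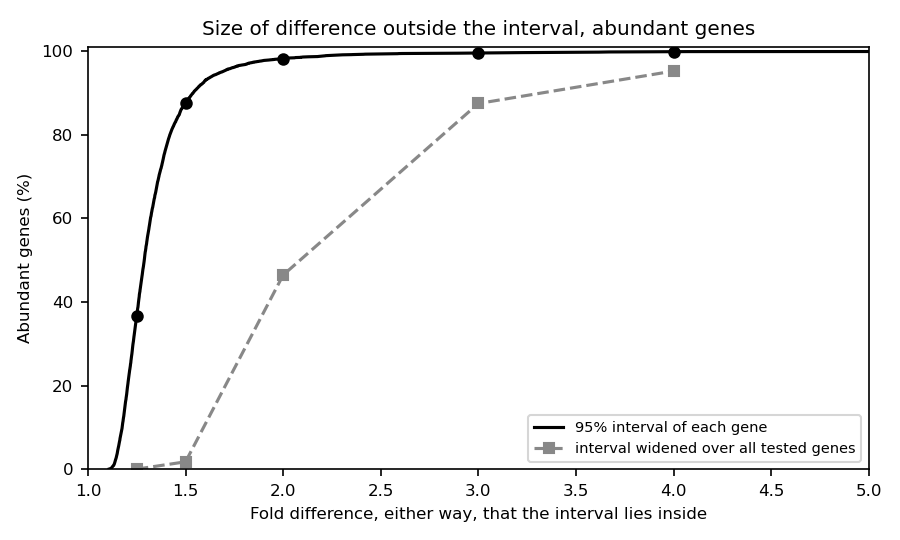
Share of the 7005 abundant genes (y axis, percent) whose interval for Cfb-/- over WT diabetic mice lies inside a given fold difference either way (x axis), for the 95% interval of each gene (black) and for intervals widened by Bonferroni over all tested genes (grey, dashed, computed at the squares). At 2-fold the curves stand at 98.2% and 46.4%.

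The precision hardly depended on the level once a gene was abundant. Genes with a mean under 10 FPKM had intervals reaching a median of 1.22-fold to either side and genes over 100 FPKM 1.23-fold, and 98.7% and 98.4% of them lay inside 2-fold. The intervals of 8 genes reached beyond 4-fold. Among these were Cfb, Cfd, the B cell gene Jchain, the immediate early gene Egr1, the fatty acid hydroxylase gene Cyp4a14, and Nccrp1 and Sprr1a, the last an epithelial cornification gene. For Egr1 the interval ran from 0.590-fold to 5.45-fold, so that a fall to 0.5-fold was excluded and a rise of over 4-fold was not.

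The abundant genes with the highest levels illustrate this precision. Kap, an androgen-regulated proximal tubule transcript, was at 0.839-fold in Cfb-/- diabetic mice (95% interval 0.535 to 1.32). The antioxidant enzymes Gpx3 and Gpx1 were at 0.922-fold (0.670 to 1.27) and 0.849-fold (0.668 to 1.08). The ferritin chains Fth1 and Ftl1 were at 0.919-fold (0.707 to 1.19) and 0.964-fold (0.752 to 1.24). None of these intervals left 1, and each excluded 0.5-fold. Eef1a1, Spp1, Fxyd2 and Klk1 were also among the 10 highest, with folds from 0.916 (Fxyd2) to 1.24 (Klk1) and overlapping groups.

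The largest difference besides Cfb was in Cfd (chr10:79890853-79892655), which encodes factor D, the protease that cleaves factor B and that fat cells secrete as adipsin. The WT diabetic mice had 9.39, 5.56, 25.5 and 7.44 FPKM, and each of the 4 Cfb-/- diabetic mice was listed at 0. No values overlapped, and the limma adjusted p of 0.0523 missed the threshold. Because a group was listed at 0, no fold is given. Cfd reached 5 FPKM only in the WT mice, where it was high, so that its admission favoured this direction. In control mice the direction was not the same: 1 Cfb-/- control mouse had 6.01 FPKM, the other 5 control mice were at or under 0.0755 FPKM, and the interaction of genotype and diabetes had an adjusted p of 0.634 from limma.

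Car3 (chr3:14863538-14872381), the carbonic anhydrase of muscle and fat, was measured at 3.67, 4.19, 6.20 and 3.80 FPKM in Cfb-/- diabetic mice and at 8.83, 8.65, 10.6 and 10.2 FPKM in WT diabetic mice. All Cfb-/- mice were below all WT mice, at 0.463-fold (95% interval 0.342 to 0.627), with a limma adjusted p of 0.258. Car3, too, was admitted only through the WT mice, so that its separation is a description. Fabp4, a fatty acid carrier of fat cells, capillary endothelium and macrophages, was at 38.9, 32.1, 34.2 and 43.9 FPKM against 44.1, 61.2, 66.4 and 68.7 FPKM. Its groups were separate by a narrow margin and overlapped after median-ratio scaling, and the fold was 0.626 (0.458 to 0.855). Cfd, Car3 and Fabp4 are themselves members of the adipocyte list, so the list is no separate support for them. Of 14 listed adipocyte genes, 5 were abundant and 6 were lower without overlap, against 0.885% of all tested genes. Of these 6, 3 were Cfd, Car3 and Fabp4. Plin4, Cidec, Cidea and Pparg, which were not abundant, overlapped. In all Cfb-/- diabetic mice 4 of the 14 were at 0, among them Plin1 and Retn. These 2 were near 0 in WT diabetic mice as well, at no more than 0.442 and 0.392 FPKM. The summed adipocyte list, with Cfd, Car3 and Fabp4 included, was 112 to 155 FPKM in Cfb-/- and 157 to 219 FPKM in WT diabetic mice. The part of fat in these results was not tested, and in whole-tissue RNA fewer cells of a type and less RNA per cell cannot be told apart. The other abundant members, Lpl and Cd36, overlapped between the groups, at 1.21-fold and 0.854-fold.

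Among the other lower genes, Nat8f5, an N-acetyltransferase of the kidney-rich Nat8 family, was at 14.9, 19.0, 19.0 and 25.3 FPKM in Cfb-/- diabetic mice and at 29.3, 39.3, 29.6 and 29.3 FPKM in WT diabetic mice, or 0.609-fold (0.457 to 0.811). Sgk1, the kinase through which aldosterone and cell volume act on sodium transport, was at 43.0, 35.8, 50.5 and 55.9 FPKM against 70.1, 112, 60.9 and 64.7 FPKM, or 0.612-fold (0.425 to 0.880). Angptl4, a secreted inhibitor of lipoprotein lipase and a PPAR target, was at 21.6, 30.7, 32.0 and 29.9 FPKM against 42.0, 44.8, 37.6 and 50.3 FPKM, or 0.650-fold (0.450 to 0.939). In all 3 the lowest WT mouse stood above the highest Cfb-/- mouse, and for Angptl4 the control groups did not overlap either, with a log2 fold change of -1.42. Susd3, Rgcc and the fatty acid oxidation genes Pex11a, Acaa2 and Cpt2 made up the remainder of the 12 genes with the largest lower values, at 0.728-fold to 0.742-fold. The groups of Nat8f5 and of Rgcc overlapped after removal of the length dependence. All limma adjusted p values from Nat8f5 onward were 1.

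**Figure D2:**
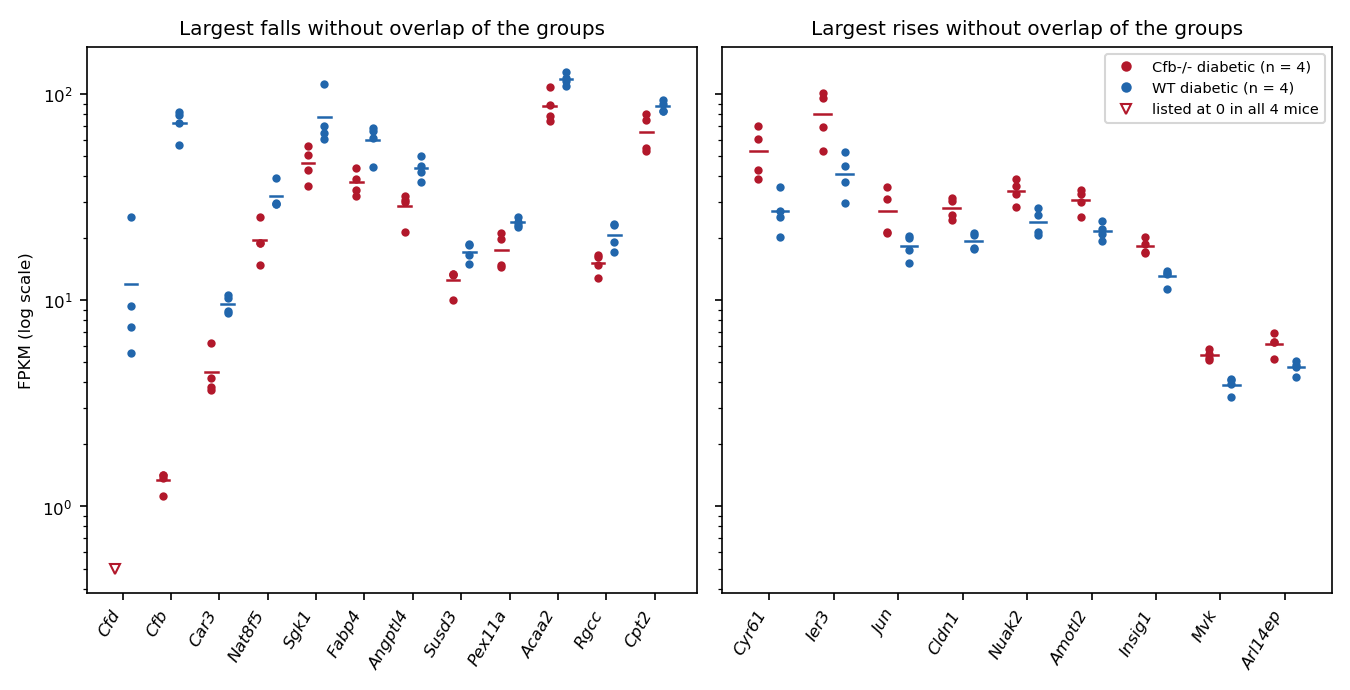
FPKM (y axis, log scale) in each Cfb-/- diabetic (red) and WT diabetic (blue) mouse for 12 lower and 9 higher abundant genes, taken from the 12 with the largest fold changes in each direction among those without overlap; points are mice, bars are group means, and the open triangle marks Cfd, listed at 0 in all 4 Cfb-/- mice and drawn at an arbitrary height. Outside Cfb and Cfd the groups are separate but close, with the largest fold changes near 2.

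Among genes without overlap, no higher gene reached 2-fold. Cyr61, a secreted matricellular protein and target of YAP, was at 60.9, 69.9, 43.1 and 38.9 FPKM in Cfb-/- diabetic mice and at 35.3, 27.2, 25.4 and 20.2 FPKM in WT diabetic mice, or 1.95-fold (1.14 to 3.31). Ier3, an early response gene that modulates cell survival, was at 102, 95.6, 69.5 and 52.7 FPKM against 37.4, 29.6, 45.0 and 52.2 FPKM, or 1.92-fold (1.30 to 2.84). Both were highest in Cfb-/- mice 1 and 2, and Ier3 separated the groups only just. With the adipocyte marker score as a covariate the log2 fold change of Cyr61 turned from 0.96 to -0.13. The score runs with genotype in diabetic mice, since its abundant members deviated by -0.99 to -0.61 in Cfb-/- and by 0.56 to 1.26 in WT mice. A fit with this covariate therefore cannot tell fat and genotype apart. Cldn1, a tight junction claudin, was at 1.44-fold (1.11 to 1.86), the kinase gene Nuak2 at 1.41-fold (1.11 to 1.79), and Amotl2, an angiomotin that binds YAP, at 1.40-fold (1.15 to 1.71). The Amotl2 groups overlapped after removal of the length dependence. Arl14ep, admitted only through the Cfb-/- mice, was at 1.29-fold. Its groups overlapped after median-ratio scaling, after quantile normalization and after removal of the length dependence. Jun, a subunit of AP-1, was at 1.46-fold, with an interval of 0.877 to 2.42 that held 1, since limma takes the spread from all 14 mice. Its log2 fold change turned from 0.54 to -0.60 with the adipocyte score. All limma adjusted p values were 1.

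Sterol genes held 4 of the 12 genes with the largest higher values. Of 40 listed genes of cholesterol and fatty acid synthesis, 32 were abundant, 23 of these were higher and 9 lower, and 6 had an unadjusted p under 0.05, all higher, against 53 higher of all 7005 abundant genes. The list's median log2 fold change was 0.19, against 0.015 for all abundant genes. Without overlap 6 members were higher, among them Insig1, Mvk, Srebf2 and Sc5d, against 111 (1.58%) of all abundant genes. Of the 32 members, 6 had reached the limit only through the Cfb-/- mice, Mvk among them, which favours a higher level. Over the 26 members at the limit in all 8 mice, 17 were higher and 9 lower, 4 had an unadjusted p under 0.05, 3 did not overlap, and the median was 0.075.

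Insig1 (chr5:28071412-28078662), which retains SREBP in the ER and is itself an SREBP target, was measured at 20.2, 17.1, 18.8 and 17.04 FPKM in Cfb-/- diabetic mice and at 13.6, 13.9, 11.4 and 13.3 FPKM in WT diabetic mice, or 1.40-fold (1.15 to 1.71). Mvk (chr5:114444264-114460591), mevalonate kinase, was at 5.14, 5.81, 5.23 and 5.48 FPKM against 3.91, 4.14, 3.39 and 4.11 FPKM, or 1.39-fold (1.13 to 1.71). In Insig1, which was at the limit in all 8 mice, each Cfb-/- mouse was above each WT mouse. Srebf2 (chr15:82147269-82205379), which encodes SREBP-2, was at 18.01, 17.5, 16.4 and 16.2 FPKM against 15.6, 14.8, 10.96 and 15.5 FPKM, or 1.21-fold (1.03 to 1.42). The Srebf2 groups overlapped after removal of the length dependence. Sc5d, the sterol C5 desaturase, was at 1.14-fold (0.936 to 1.38). Its groups overlapped after median-ratio scaling, after quantile normalization and after removal of the length dependence.

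Among the list members with the highest levels, 2 did not share the shift: Hmgcs1, HMG-CoA synthase of the cytosol, was at 0.941-fold (0.729 to 1.21) and malic enzyme Me1 at 0.893-fold (0.705 to 1.13), both with overlapping groups. Without Cfb-/- mice 1 and 2 their log2 fold changes turned, from -0.088 to 0.16 for Hmgcs1 and from -0.16 to 0.17 for Me1. Per mouse, the mean deviation of the list from its 8-mouse mean was 0.075, -0.023, 0.17 and 0.17 on the log2 scale in Cfb-/- mice and -0.058, 0.031, -0.25 and -0.11 in WT mice. WT mouse 2 was above Cfb-/- mouse 2, so that the groups overlapped. Without Cfb-/- mice 1 and 2 the median was 0.22, with 7 genes at an unadjusted p under 0.05, and without WT mouse 3 it was 0.12, with 3. With the adipocyte marker score as a covariate it was -0.001 and 0 genes had an unadjusted p under 0.05. Because that score runs with genotype in diabetic mice, this fit cannot tell fat and genotype apart. In control mice 27 of the 32 genes were higher in Cfb-/- mice, and their median was 0.28.

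Since these genes are known targets of SREBP, the promoters of the list were searched for the sterol regulatory element TCACCCCA on both strands. RefSeq promoters (GRCm38.p6, 250 bases before to 50 after a start) were given for 23 of the 32 abundant members, and 2 of them held the letters, against 1.84% of the abundant genes with a promoter and 1.77% of all genes with one. The 2 were Srebf2 and Hmgcs1, with log2 fold changes of 0.27 and -0.088, and of 0.21 and 0.16 without Cfb-/- mice 1 and 2. Insig1 is shown beside them as a member whose level was higher and whose window lacks these 8 letters. Capitals mark the match, which begins 162 bases before the start in Srebf2 (chr15:82147019-82147318, plus strand) and 137 bases before it in Hmgcs1 (chr13:119690101-119690400, plus strand); the Insig1 window is chr5:28071162-28071461, plus strand.
Srebf2: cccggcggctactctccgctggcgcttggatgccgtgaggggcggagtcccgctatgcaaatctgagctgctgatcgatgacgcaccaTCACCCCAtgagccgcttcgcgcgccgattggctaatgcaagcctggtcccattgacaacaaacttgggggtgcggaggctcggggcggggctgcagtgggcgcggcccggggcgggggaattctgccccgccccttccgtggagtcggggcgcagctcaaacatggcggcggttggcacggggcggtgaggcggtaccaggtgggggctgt
Hmgcs1: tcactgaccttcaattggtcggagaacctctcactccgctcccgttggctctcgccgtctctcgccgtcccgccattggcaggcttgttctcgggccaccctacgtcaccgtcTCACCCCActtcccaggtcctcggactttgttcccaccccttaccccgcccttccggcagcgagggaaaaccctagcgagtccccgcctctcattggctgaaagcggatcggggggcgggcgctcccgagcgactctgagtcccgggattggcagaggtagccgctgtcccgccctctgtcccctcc
Insig1: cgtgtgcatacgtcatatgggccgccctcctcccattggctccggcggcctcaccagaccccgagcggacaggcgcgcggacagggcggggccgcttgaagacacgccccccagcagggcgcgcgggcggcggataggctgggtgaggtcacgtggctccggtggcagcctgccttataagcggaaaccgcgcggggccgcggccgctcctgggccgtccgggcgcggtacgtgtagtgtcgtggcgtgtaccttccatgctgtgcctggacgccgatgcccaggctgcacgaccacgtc
A match describes the letters of these windows alone.

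Genes of fatty acid oxidation were lower in Cfb-/- diabetic mice. Of 53 listed genes 50 were abundant, 47 of them lower and 3 higher, and the median log2 fold change was -0.25. An unadjusted p under 0.05 was found for 18 genes, all lower, against 117 lower of all 7005 abundant genes, and 9 genes were lower without overlap, against 66 (0.942%) of all abundant genes. All 9 were at the limit in all 8 mice, but not all of them encode steps of oxidation. Angptl4 restrains the release of fatty acids from lipoproteins. Slc25a20, the carnitine-acylcarnitine carrier of the inner mitochondrial membrane, was at 30.02, 30.3, 33.4 and 38.5 FPKM in Cfb-/- diabetic mice and at 41.4, 45.6, 39.3 and 48.2 FPKM in WT diabetic mice, or 0.757-fold (0.649 to 0.882). Cpt2 (chr4:107903982-107923589), which reforms acyl-CoA in the matrix, was at 53.0, 54.8, 80.3 and 74.8 FPKM against 82.8, 89.9, 82.8 and 93.6 FPKM, or 0.742-fold (0.602 to 0.915). In both genes mice 1 and 2 of the Cfb-/- group were the lowest.

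Within the beta-oxidation spiral, Acaa2, the mitochondrial thiolase, was at 74.4, 77.9, 108 and 88.4 FPKM against 116, 128, 109 and 119 FPKM, or 0.732-fold (0.610 to 0.877). Eci2, an enoyl-CoA isomerase, was at 33.1, 33.6, 36.6 and 39.7 FPKM against 43.1, 44.8, 46.1 and 44.9 FPKM, or 0.797-fold (0.684 to 0.930). Etfb, the flavoprotein subunit that passes electrons to the respiratory chain, was at 0.820-fold (0.660 to 1.02). These 3 genes were separate in all mice, although the Acaa2 values of Cfb-/- mouse 3 and WT mouse 3 were nearly equal. The Acaa2 groups overlapped after quantile normalization and after removal of the length dependence, and the Cpt2 groups after quantile normalization. Among peroxisomal genes, Pex11a, which drives peroxisome division, was at 14.8, 14.5, 19.7 and 21.3 FPKM against 24.1, 25.3, 22.8 and 23.3 FPKM, or 0.729-fold (0.603 to 0.881), and the thiolase Acaa1b at 0.767-fold (0.640 to 0.919). Acot2, a mitochondrial acyl-CoA thioesterase, was at 0.784-fold (0.668 to 0.920). Acaa1b, Acot2 and Nat8f5 have close paralogs, and how reads shared with these were counted is not known.

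Of the fatty acid oxidation list, the 3 members with the highest levels were Slc27a2, a fatty acid transporter and acyl-CoA synthetase, at 0.838-fold (0.653 to 1.08), Etfb, and the omega-hydroxylase gene Cyp4a10 at 0.694-fold (0.477 to 1.01). Cpt1a, the entry step of the carnitine shuttle, was looked up after these values had been seen and was at 0.945-fold (0.758 to 1.18).

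The list was lowest in 2 mice. Its mean deviation on the log2 scale was -0.35 and -0.36 in Cfb-/- mice 1 and 2, 0.10 and 0.015 in Cfb-/- mice 3 and 4, and 0.024, 0.23, 0.19 and 0.14 in the WT mice. Proximal tubule genes moved in the same mice, at -0.49, -0.36, 0.30 and 0.19 in Cfb-/- mice and 0.087, 0.22, 0.16 and -0.11 in WT mice. Without Cfb-/- mice 1 and 2 the median of the oxidation genes was -0.081 and 3 genes had a lower level at an unadjusted p under 0.05, and without mouse 1 alone 10 did. With the urothelium marker score as a covariate there were 4, and with the proximal tubule genes as a covariate 16. The urothelium score is not independent of genotype in diabetic mice. Its markers summed to 5.19 to 12.0 FPKM in Cfb-/- and 4.21 to 102 FPKM in WT mice, where 1 WT mouse was as low as the Cfb-/- mice. The fit with this score therefore cannot fully tell urothelium and genotype apart. In control mice 26 of the 50 genes were lower, with a median log2 fold change of -0.013.

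**Figure D3:**
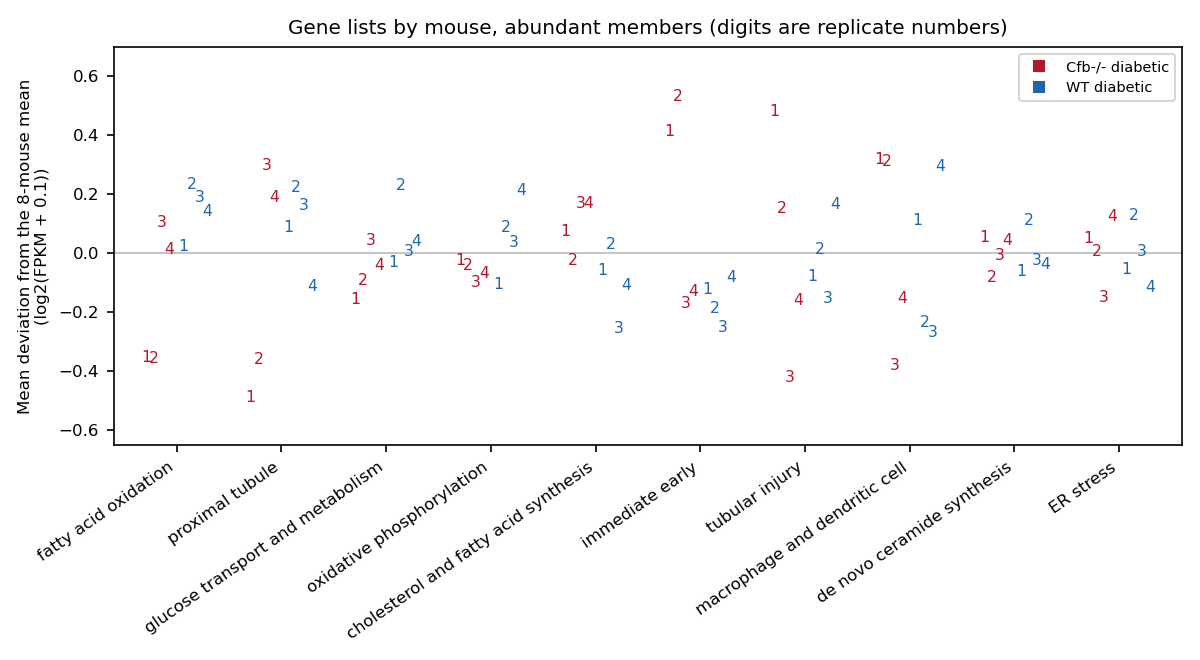
Mean deviation of each list's abundant members from their mean over the 8 diabetic mice (y axis, log2(FPKM + 0.1)) for 10 gene lists (x axis), with each mouse drawn as its replicate number in red (Cfb-/- diabetic) or blue (WT diabetic). Cfb-/- mice 1 and 2 lie at -0.35 and -0.36 for fatty acid oxidation and at 0.41 and 0.53 for immediate early genes, while the de novo ceramide list stays near 0 in all mice.

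Genes of glucose handling showed a smaller difference. Of 39 abundant genes of glucose transport and metabolism, 28 were lower, and 6 had an unadjusted p under 0.05, all lower, against 117 lower (1.67%) of all abundant genes. The list's median log2 fold change was -0.070. Among them, picked out after its values had been seen, Pck1, the rate-limiting enzyme of gluconeogenesis, was at 153, 259, 409 and 254 FPKM in Cfb-/- diabetic mice and at 377, 474, 456 and 629 FPKM in WT diabetic mice, or 0.532-fold (0.325 to 0.871). Cfb-/- mouse 3 overlapped the WT range. Among the members with the highest levels, Ldhb was at 1.02-fold and the sorbitol dehydrogenase gene Sord at 0.883-fold, each with an interval that held 1. Without Cfb-/- mouse 1, and without Cfb-/- mice 1 and 2, 0 of these genes had an unadjusted p under 0.05, and without Cfb-/- mouse 2, WT mouse 2 or WT mouse 3 there were 3.

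Of all 7005 abundant genes 3853 were higher and 3152 lower, with an unadjusted p under 0.05 for 53 (0.757%) and 117 (1.67%). Of 59 abundant proximal tubule genes, 52 were lower, with a median of -0.16. An unadjusted p under 0.05 was found for 2 of them, the sugar carrier Slc5a10 at 0.748-fold and the dicarboxylate carrier Slc13a3 at 0.771-fold. Without Cfb-/- mice 1 and 2 the median was 0.15, so that the direction turned, and the log2 fold change went from -0.42 to -0.18 for Slc5a10 and from -0.38 to -0.026 for Slc13a3. Genes of the thick limb and distal nephron had a median of 0.20, with 19 of 24 higher and Casr, the calcium-sensing receptor, at 1.44-fold (1.04 to 1.99). Without the same mice that median was 0.085 and Casr went from 0.52 to 0.31 on the log2 scale. Collecting duct and intercalated cell genes had a median of 0.21, with 18 of 24 higher; Scnn1a, the alpha subunit of the epithelial sodium channel, was at 1.33-fold (1.01 to 1.76), whereas Akr1b3, the aldose reductase of the inner medulla, was at 0.502-fold (0.273 to 0.925). Without Cfb-/- mice 1 and 2 the collecting duct median turned to -0.046, and Scnn1a went from 0.41 to 0.028 on the log2 scale. For Akr1b3, WT mice 2 and 3 were at 122 and 71.4 FPKM and all other diabetic mice at 22.4 to 27.9 FPKM. The summed inner medulla markers were 168 to 654 FPKM in WT and 185 to 292 FPKM in Cfb-/- diabetic mice. All 13 abundant podocyte genes were higher by values of up to 0.26 on the log2 scale, with 0 at an unadjusted p under 0.05, and their median went from 0.10 to -0.072 without these mice.

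Immediate early genes were higher, with 15 of 15 abundant members above 0 and a median of 0.19. Only Ier3 had an unadjusted p under 0.05, against 53 higher (0.757%) of all abundant genes. Jun joined it among genes higher without overlap, which were 2 of 15, against 111 (1.58%) of all abundant genes. The list stood at 0.41 and 0.53 in Cfb-/- mice 1 and 2 and at -0.17 and -0.13 in mice 3 and 4, against -0.25 to -0.084 in WT mice. Without mice 1 and 2 its median was 0.017. With the adipocyte score, which runs with genotype, as a covariate it was -0.20. Tubular injury genes were at 0.48 and 0.15 in Cfb-/- mice 1 and 2 and at -0.42 and -0.16 in mice 3 and 4, with a list median of -0.009, and -0.29 without mice 1 and 2. Macrophage and dendritic cell genes were at 0.32 and 0.31 in mice 1 and 2 and at -0.38 and -0.15 in mice 3 and 4, and 0 of 18 had an unadjusted p under 0.05. Their median went from 0.061 to -0.22 without mice 1 and 2.

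Complement genes other than Cfb and Cfd were not separated by genotype. C3, the substrate of the alternative convertase, was at 38.3, 25.5, 26.5 and 43.6 FPKM in Cfb-/- diabetic mice and at 35.6, 33.7, 40.0 and 44.8 FPKM in WT diabetic mice, or 0.851-fold (0.645 to 1.12). The groups overlapped, and 0.5-fold lay outside the interval. Clu, which blocks the membrane attack complex, was at 1.23-fold (0.805 to 1.88), and its log2 fold change turned from 0.30 to -0.22 without Cfb-/- mice 1 and 2. In the classical pathway 8 genes were abundant, all with intervals inside 1.5-fold, among them C1qa at 1.03-fold (0.728 to 1.44), C1qb at 1.01-fold (0.721 to 1.43) and the C1 inhibitor gene Serping1 at 0.966-fold (0.722 to 1.29). Their median log2 fold change was 0.041, and -0.32 without Cfb-/- mice 1 and 2.

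Genes that neighbour Cfb in the H-2 class III region were compared as well. Of 45 listed neighbours 28 were abundant, 14 higher and 14 lower. Their median log2 fold change was 0.005, and 0 had an unadjusted p under 0.05. Without overlap 1 of the 28 was higher and 2 were lower, against 1.58% and 0.942% of all abundant genes. Prrc2a was the higher one, at 1.15-fold (0.980 to 1.34), and Rnf5 and Csnk2b were lower, at 0.883-fold (0.758 to 1.03) and 0.910-fold (0.778 to 1.06). After removal of the length dependence all 3 overlapped.

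The study followed ceramide synthesis and reported Cers1, Cers2 and Cers3 lower by RT-qPCR in kidney cortex of Cfb-/- diabetic mice. That assay used larger groups of mice than those sequenced. It also reported a ceramide synthesis gene set lower in its sequencing and total ceramide lower by lipidomics. In the values compared here, the abundant genes of that pathway had narrow intervals. De novo synthesis starts with serine palmitoyltransferase and ends with the ceramide synthases and the desaturase Degs1. Of 17 listed genes 10 were abundant, 5 higher and 5 lower, with a median log2 fold change of 0.004. All 10 intervals lay inside 1.5-fold, and none reached below 0.811-fold or above 1.33-fold. Cers2, the synthase for very long acyl chains and the main one in kidney here, was at 92.7, 86.6, 94.5 and 89.2 FPKM in Cfb-/- diabetic mice and at 93.4, 100.2, 91.2 and 91.1 FPKM in WT diabetic mice, or 0.966-fold (0.864 to 1.08). Even the interval widened over all genes, 0.661 to 1.41, excluded 0.5-fold. Cers5 was at 1.04-fold (0.907 to 1.19), Degs1 at 0.969-fold (0.811 to 1.16) and the palmitoyltransferase subunit gene Sptssa at 1.03-fold (0.889 to 1.18). Cers1, Cers3, Cers4 and Cers6 were under the limit of 5 FPKM and are outside this comparison.

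Among 23 abundant genes of ceramide turnover and complex sphingolipids the median was -0.028, and 3 were lower at an unadjusted p under 0.05, with overlapping groups, against 117 lower (1.67%) of all abundant genes. Acer2, the alkaline ceramidase of the Golgi, was at 5.71, 5.53, 4.71 and 4.59 FPKM in Cfb-/- diabetic mice and at 5.05, 11.2, 9.45 and 7.99 FPKM in WT diabetic mice, or 0.636-fold (0.451 to 0.896). WT mouse 1 lay among the Cfb-/- mice, and the gene was admitted only through the WT mice. Ugt8a, which makes galactosylceramide, was at 0.685-fold (0.471 to 0.996), and Gm2a, the activator of ganglioside breakdown, at 0.852-fold (0.732 to 0.993). Both rested on Cfb-/- mice 1 and 2, since without them the log2 fold change went from -0.55 to -0.041 for Ugt8a and from -0.23 to -0.037 for Gm2a.

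Genes of ER stress, inflammation and matrix that the study followed were also compared where they were abundant. It measured most of them by RT-qPCR in kidney cortex, in larger groups of diabetic mice than those sequenced. There it reported Hspa5, Xbp1, Atf6, Ddit3, Il1b, Tnf, Fn1 and Tgfb1 lower and Nfe2l2 higher in Cfb-/- diabetic mice. The product of C5ar1 was stained in mouse kidney, and p65 was measured as protein in the human cell line HK-2. Values here are RNA of whole samples by sequencing. Hspa5, the ER chaperone BiP, was at 275, 277, 199 and 298 FPKM in Cfb-/- diabetic mice and at 247, 308, 258 and 228 FPKM in WT diabetic mice, or 1.002-fold (0.749 to 1.34). Xbp1 was at 0.918-fold (0.720 to 1.17) and Atf6 at 1.05-fold (0.824 to 1.33). Of 24 abundant ER stress genes 0 had an unadjusted p under 0.05, and no interval reached below 0.630-fold or above 1.68-fold; the chaperone genes Calr and Pdia3 were at 1.04-fold and 1.01-fold. Fn1, fibronectin, was at 15.6, 15.3, 10.9 and 12.4 FPKM against 17.1, 11.02, 9.81 and 10.5 FPKM, or 1.13-fold (0.833 to 1.54), and Tgfb1 was at 1.05-fold (0.834 to 1.32). Rela, the p65 subunit of NF-kB, was at 1.07-fold (0.893 to 1.27), and Nfe2l2, which encodes NRF2, at 1.10-fold (0.926 to 1.31). Without Cfb-/- mice 1 and 2 the log2 fold change turned from 0.18 to -0.027 for Fn1 and from 0.068 to -0.20 for Tgfb1. For Rela it turned from 0.091 to -0.099 and for Nfe2l2 from 0.14 to -0.045. Il1b, Tnf, Ddit3 and C5ar1 were below the limit.

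**Figure D4:**
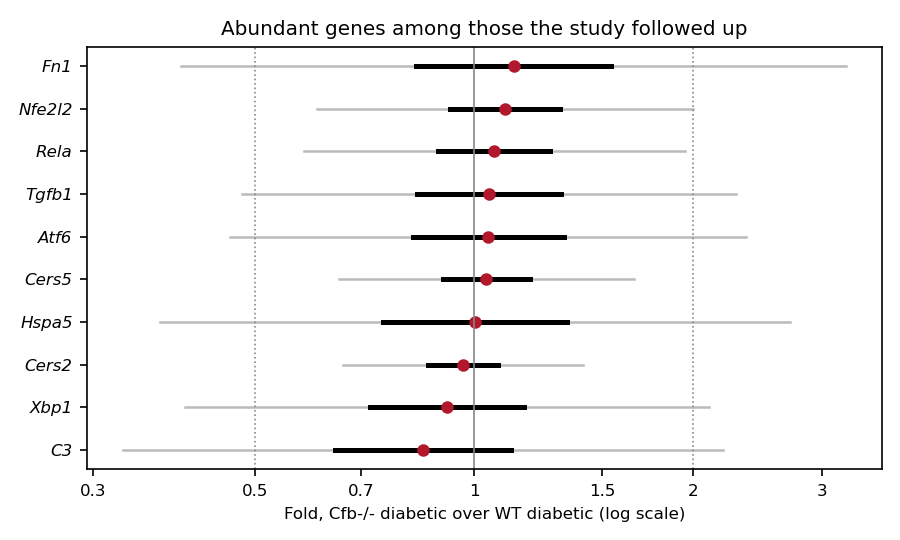
Fold of Cfb-/- over WT diabetic mice (x axis, log scale) for 10 abundant genes among those the study followed up (y axis); points are estimates, black bars 95% intervals, grey bars intervals widened by Bonferroni over all tested genes, and dotted lines 0.5-fold and 2-fold. All black bars hold 1 and stay between 0.5 and 2, and Cers2 has the narrowest, 0.864 to 1.08.

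In the lists around these genes an unadjusted p under 0.05 was found for 0 of 22 abundant NF-kB and inflammation genes, 35 matrix and TGF-beta genes, 37 NRF2 and antioxidant genes and 23 apoptosis and pyroptosis genes. Their medians were 0.11, 0.11, -0.083 and 0.010, and without Cfb-/- mice 1 and 2 they were -0.096, -0.087, -0.020 and -0.017. Inside 1.5-fold were 16, 28, 35 and 22 of their intervals. Of 32 abundant lysosome genes all intervals lay inside 1.5-fold, and only Ctsh, cathepsin H, had an unadjusted p under 0.05, at 0.840-fold. Among 35 interferon and MHC class I genes H2-Q6 was higher at an unadjusted p under 0.05, at 1.38-fold (1.04 to 1.82); it has close paralogs, and its log2 fold change went from 0.46 to 0.15 without mice 1 and 2.

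Short, highly expressed housekeeping genes were mostly lower in Cfb-/- diabetic mice. Of 79 abundant genes of oxidative phosphorylation 76 were lower (median log2 fold change -0.11), and of 80 cytosolic ribosomal protein genes 79 were lower, with a median of -0.12. An unadjusted p under 0.05 was found for 1 of the former, Ndufb3, and for 0 of the latter. Ndufb3 and Ndufb4 of complex I were lower without overlap, at 0.836-fold (0.701 to 0.996) and 0.884-fold (0.736 to 1.06), as were Ndufv3 at 0.869-fold (0.704 to 1.07) and Uqcrb of complex III at 0.887-fold (0.725 to 1.09). The proteasome subunit genes Psma3, Psmb1 and Psmd12 were lower without overlap at 0.921-fold, 0.872-fold and 0.940-fold. These were 4 of 79 oxidative phosphorylation and 3 of 46 proteasome genes, against 0.942% of all abundant genes. Only Ndufv3 and Psma3 among them stayed without overlap under median-ratio scaling, quantile normalization and removal of the length dependence alike. Ndufb4 overlapped under each of these. The median transcript length was 892 bases for the oxidative phosphorylation list and 926 bases for the ribosomal list, against 2821 bases for all abundant genes.

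Fold changes ran with transcript length. Length was taken as the longest coding transcript in GENCODE and was available for 6829 abundant genes. Over these genes, which are not independent replicates, Spearman's rho of the log2 fold change with length was 0.40 in diabetic mice and 0.66 in control mice. Genes higher without overlap had a median length of 4093 bases and genes lower without overlap one of 1589 bases. With the genes ranked by length into 3 equal classes, in the short class, up to 2087 bases, the median log2 fold change was -0.047 in diabetic mice and -0.23 in control mice, and in the long class, from 3636 bases, it was 0.064 and 0.22. Within a group the mice differed in the same respect, and rho of a mouse's deviation with length was 0.066 to 0.59 among Cfb-/- and -0.22 to 0.36 among WT diabetic mice. When this dependence was removed mouse by mouse, the medians were -0.071 for oxidative phosphorylation, -0.053 for ribosomal proteins, -0.27 for fatty acid oxidation, with 22 genes lower at an unadjusted p under 0.05, and 0.12 for cholesterol and fatty acid synthesis, with 6 genes higher.

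The 6 control mice share no animal with the diabetic mice and were used to follow the genes without overlap. Of the 111 higher genes 90 (81.1%) were also higher in Cfb-/- than in WT control mice, and of the 65 lower genes besides Cfb 56 were also lower. Over all abundant genes 49.9% were higher. These shares varied with length. In the short class 7 of 13 higher genes were again higher and 43 of 46 lower genes again lower, where 83.5% of all abundant genes of that length were lower. In the long class 54 of 59 higher genes were again higher, where 83.0% of all were. In the middle class, where 51.1% of all genes were higher, 27 of 35 higher genes were again higher and 12 of 16 lower genes, Cfb among them, again lower. With the length dependence removed in all mice, 40 of 60 higher (66.7%) and 82 of 105 lower genes (78.1%) had the same direction in control mice, where 45.4% of all abundant genes with a length were higher and 54.6% lower. The interaction of genotype and diabetes had an adjusted p under 0.05 for 0 abundant genes by limma, with 406 at an unadjusted p under 0.05.

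**Figure D5:**
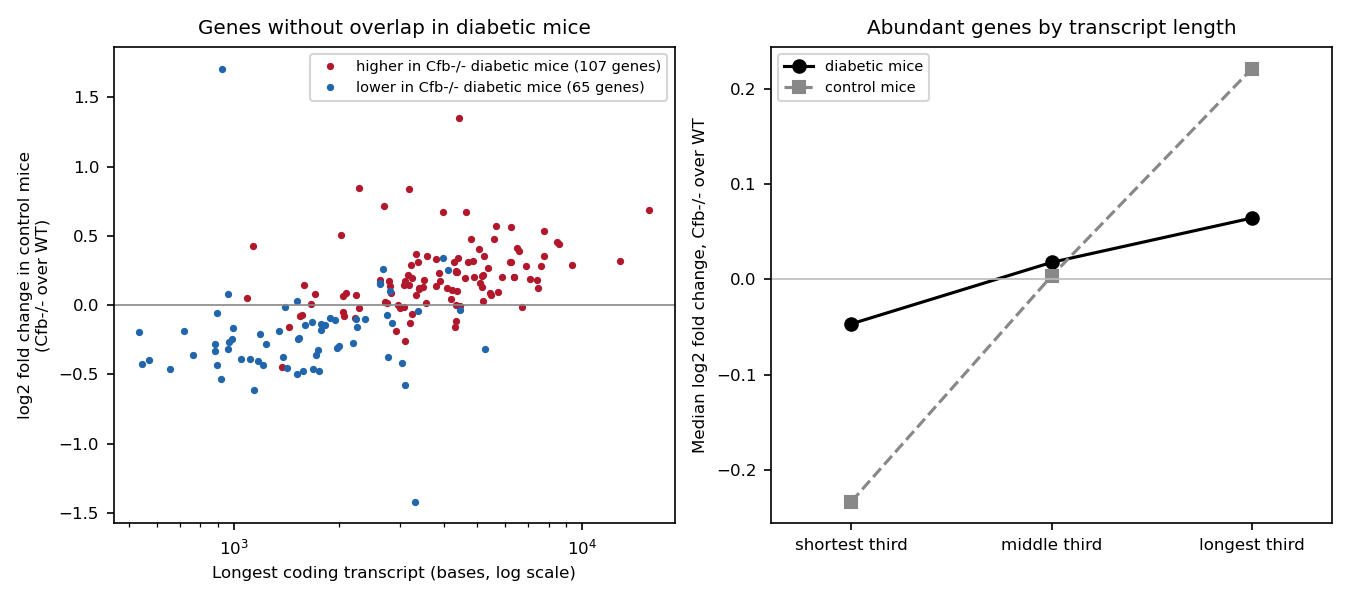
Left, log2 fold change of Cfb-/- over WT in control mice (y axis) against transcript length (x axis, bases, log scale) for genes without overlap in diabetic mice, red for higher and blue for lower in Cfb-/- diabetic mice, Cfb left out; right, median log2 fold change of all abundant genes (y axis) in 3 classes of transcript length (x axis). The control median rises from -0.23 in the short to 0.22 in the long class, and higher genes lie mostly to the right of lower ones.

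Few marker genes of other cell types reached the limit on the level. None of 15 listed urothelial genes was abundant, and their sum was 5.19 to 12.0 FPKM in Cfb-/- diabetic mice and 4.21 to 102 FPKM in WT diabetic mice. Of 14 tested, 11 were lower at an unadjusted p under 0.05 by limma, against 1.67% of all tested genes, but 0 were without overlap. WT diabetic mouse 1 was as low as the Cfb-/- mice, with Upk2 and Upk3a at 0 and Krt5 at 0.195 FPKM. T cell, adrenal gland, skeletal muscle and proliferating cell markers also had 0 abundant genes. Jchain, the joining chain of plasma cell immunoglobulin, was the 1 abundant B cell marker, at 21.4, 12.8, 5.10 and 47.8 FPKM in Cfb-/- diabetic mice and at 33.9, 18.9, 69.9 and 48.3 FPKM in WT diabetic mice, with overlapping groups. Red blood cell markers were summed to 126 to 306 FPKM and 159 to 780 FPKM. The part of these cells in the differences above was not tested.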

How the data were processed

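Kidney RNA of 14 mice was measured with stranded mRNA libraries, and the deposited values were FPKM per gene, which the authors had computed from their reads. The submitters' processing notes name Trimmomatic, HISAT2, Cufflinks, HTSeq, DESeq and the build GRCm38.p6, without versions. FPKM divides out depth and length, so that counting error cannot be derived, and the depth per sample is unknown. Group means of log2(FPKM + 0.1) were fitted over all 14 mice with limma 3.58.1 (R 4.3.3, mean trend) for the 14912 genes with at least 0.1 FPKM in 3 mice, and p values were adjusted by Benjamini-Hochberg over all of them. Intervals are 95% intervals of that fit. Fold changes are on the log2(FPKM + 0.1) scale, which understates changes of low genes. Groups were said not to overlap when the lowest value of one lay above the highest of the other. Named genes were the deleted gene, genes the study followed, the 12 largest differences without overlap in each direction, the members of a list without overlap, the 3 members of a list with the highest levels, and the 10 most abundant genes. Cpt1a, Pck1 and members named because 5 or fewer passed a limit were chosen after their values were seen. The members and the 27 pathway and 9 marker lists were chosen with earlier results of these data known. Some genes that these rules name are not reported here. Mice were grouped by their labels. Alternatives changed the pseudocount, filter, scaling, covariates, limit on the level and mice included. The script was tested on simulated data. Python 3.11.15, numpy 2.4.6, pandas 2.3.3 and scipy 1.17.1 were used for the summaries.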

Additional observations from a re-analysis of the deposited data

Results flagged for a closer look

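Among 188 groups of 4 mice examined for 94 named genes, 9 held a mouse whose gap to its nearest neighbour exceeded Dixon's 95% critical value as a share of the group's range, and chance flags about 1 group in 20. In Cfb-/- diabetic mice, Cfb was lowest in mouse 3 at 1.13 FPKM, with the nearest at 1.38 FPKM. Susd3 was lowest in Cfb-/- diabetic mouse 1 at 10.1 FPKM, with the nearest at 13.2 FPKM. Sc5d was highest in Cfb-/- diabetic mouse 3 at 8.39 FPKM, with the nearest at 7.31 FPKM. Pdia3 and Psma3 were lowest in Cfb-/- diabetic mouse 2, at 172 and 18.7 FPKM. In WT diabetic mice, Nat8f5 was highest in mouse 2 at 39.3 FPKM, with the nearest at 29.6 FPKM. Srebf2 was lowest in WT diabetic mouse 3 at 10.96 FPKM, with the nearest at 14.8 FPKM. Fn1 was highest in WT diabetic mouse 1 at 17.1 FPKM, with the nearest at 11.02 FPKM. Ftl1 was highest in WT diabetic mouse 4 at 3293 FPKM, with the nearest at 2820 FPKM.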

How the results depend on the processing

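Of 160 recomputed summary values, 129 stayed within the range that counts as unchanged and 31 moved. The abundant genes at an adjusted p under 0.05 by limma were 2 in the 8 diabetic mice alone, 2 with a replicate block and 2 with the adipocyte score as a covariate, against 1. The study's criteria called 7 genes after quantile normalization, 10 with the adipocyte score, 13 with a limit of 1 FPKM, 2 with a limit of 20 FPKM and 4 to 11 when a mouse was left out, against 4. An unadjusted p under 0.05 was found for 269 genes in the 8 diabetic mice alone, 74 with the urothelium score, 96 with the adipocyte score, 267 at a limit of 1 FPKM, 90 at 20 FPKM and 76 to 271 when a mouse was left out, against 170, with the fewest without Cfb-/- mouse 1 and the most without Cfb-/- mouse 4. Groups did not overlap for 323 genes at 1 FPKM, 62 at 20 FPKM, 1241 without Cfb-/- mice 1 and 2 and 243 to 571 when a mouse was left out, against 177, since fewer mice separate more easily. Intervals inside 2-fold were found for 10966 genes at 1 FPKM and 2486 at 20 FPKM, against 6881. With the adipocyte score, which runs with genotype in diabetic mice, the log2 fold change was -0.13 for Cyr61 and -0.60 for Jun. The immediate early median was then -0.20. The cause of these changes was not tested, apart from the number of genes or mice. The alternatives with mice 1 and 2 left out, the proximal tubule score and the length dependence removed were chosen after seeing the data.

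With replicate number as a block, 160 genes had an unadjusted p under 0.05. Deviations of mice with the same number correlated at -0.017, -0.53, 0.13 and -0.48, so that the numbers do not pair the mice. Count models were not run, since the values are FPKM. Overlap is not defined for covariates or the block.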
